A study of Mus musculus with 15 samples.

Results

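Transcripts of 8 genes of β-cell maturity and glucose sensing, Ucn3, Mafa, Slc2a2, G6pc2, Glp1r, Slc30a8, Abcc8 and Trpm5, were followed by RNA sequencing through 15 libraries of sorted mouse islet cells. The genes were taken by symbol, and all 8 were found among the 23699 lines of the gene tables. The study asked what distinguishes islet cells with high aldehyde dehydrogenase activity. Cells carrying a red fluorescent reporter switched on by cre were stained with aldefluor, a dye that is trapped where aldehyde dehydrogenase is active, and were sorted as ALDH- or ALDH+. Controls, which the labels call triple heterozygous for FoxO 1, 3 and 4, gave 3 ALDH- and 2 ALDH+ libraries. Triple knockouts of the same 3 Foxo genes gave 5 ALDH- and 5 ALDH+ libraries. The cre driver was RIP-Cre, an insulin promoter active in β-cells, in 9 libraries, or Pdx-Cre, active in pancreatic precursors, in 6. Pdx-Cre marked 1 library of each control group and 2 of each knockout group, so each of the 4 groups held both drivers. All mice were on the mixed 129JC57BL/6 background and 6 months old, and the cells of several animals were pooled for a sort.

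A mature β-cell takes up glucose through Glut2, phosphorylates it, and burns it to ATP, which closes the KATP channel, depolarizes the membrane and opens calcium channels, so that insulin granules fuse. Slc2a2 encodes Glut2, the high-capacity glucose transporter of the rodent β-cell. G6pc2 encodes the islet glucose-6-phosphatase catalytic subunit, which reverses the first step of glucose metabolism and so sets the threshold for secretion. Abcc8 encodes SUR1, the regulatory KATP subunit, and Trpm5 a calcium-activated cation channel that adds to depolarization. Glp1r encodes the receptor through which the incretin GLP-1 amplifies secretion, and Slc30a8 the zinc transporter ZnT8, which loads granules with the zinc that packs insulin. Ucn3 encodes a secreted peptide that appears as β-cells mature and acts on neighbouring δ-cells, and Mafa is a transcription factor of the adult β-cell.

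The libraries held 7479367 to 10043802 fragments on genes, recovered from the widths of the confidence intervals in the tables. Aldh1a3, the enzyme behind the sort, lay between 22.1 and 76.9 FPKM, fragments scaled to transcript length and library size, in the 7 ALDH+ libraries and between 0.490 and 4.09 FPKM in the 8 ALDH- libraries. Foxo1 lay between 12.04 and 20.1 FPKM in the controls and between 0.0925 and 4.25 FPKM in the knockouts. Foxo3 did not pass (log2 fold change -0.08, adjusted p = 0.969), with a median of 15.2 FPKM in the knockouts and 17.7 in the controls. Foxo4 was too low to test, at most 0.0669 FPKM in the knockouts and 1.34 in the controls, whose median was 0.428. The labels give no sex, but X- and Y-linked transcripts split the libraries. Xist was between 54.0 and 223 FPKM, with the Y-linked Ddx3y at most 0.0244 FPKM, in 4 Pdx-Cre libraries: both controls and both knockouts numbered 5. In the other 11 libraries, all 9 RIP-Cre and the 2 knockout Pdx-Cre libraries numbered 4, Xist was at most 0.293 FPKM and Ddx3y between 7.96 and 17.5 FPKM. Driver and X- and Y-linked pattern are therefore largely confounded, and the driver values are given below with and without the 4 libraries.

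Proximal promoters are shown for the pair of members whose transcripts differed most with the driver among those with an entry, Slc2a2 and Ucn3, and for G6pc2, which did not pass that test. RefSeq promoters of build GRCm38.p6 matched 5 of the 8 members, and the 250 bases before the start of transcription are printed. Capitals mark matches, on either strand, to any of 4 motifs: the Foxo element GTAAACA, the homeodomain core CTAATG found in Pdx1 sites, the Maf core TGCTGA and the E box CAGNTG bound by Neurod1. Slc2a2 lies at chr3:28697653-28697902 on the plus strand, Ucn3 at chr13:3945350-3945599 on the minus strand and G6pc2 at chr2:69219699-69219948 on the plus strand. For G6pc2 the inner of 2 RefSeq starts is shown, since its locus in the deposited tables spans 7991 bases and the span from the outer start is 16921 bases.
Slc2a2: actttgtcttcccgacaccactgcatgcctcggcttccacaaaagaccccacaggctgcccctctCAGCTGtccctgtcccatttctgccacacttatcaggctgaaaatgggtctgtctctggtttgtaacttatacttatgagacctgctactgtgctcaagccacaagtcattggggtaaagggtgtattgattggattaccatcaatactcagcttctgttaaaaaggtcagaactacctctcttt
Ucn3: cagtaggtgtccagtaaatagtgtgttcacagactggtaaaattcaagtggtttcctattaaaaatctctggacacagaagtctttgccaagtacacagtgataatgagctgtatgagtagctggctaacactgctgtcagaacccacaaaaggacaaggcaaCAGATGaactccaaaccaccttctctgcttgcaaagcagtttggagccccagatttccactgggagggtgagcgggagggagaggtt
G6pc2: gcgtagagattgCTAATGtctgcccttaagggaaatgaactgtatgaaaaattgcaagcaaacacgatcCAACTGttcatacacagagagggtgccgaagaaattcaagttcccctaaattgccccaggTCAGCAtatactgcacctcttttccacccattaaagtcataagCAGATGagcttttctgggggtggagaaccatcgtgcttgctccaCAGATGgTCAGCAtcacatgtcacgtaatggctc
The E box was matched once each before Slc2a2 and Ucn3 and at 3 places before G6pc2, and 44.8% of all 32851 promoters of this length held one. The homeodomain core had 1 match and the Maf core 2 before G6pc2, against 6.36% and 16.1% of all promoters with a match. Neither motif was found before Slc2a2 or Ucn3, and the Foxo element, held by 3.17% of all promoters, was found in none of the 3. These are matches of letters in a window and not sites shown to be bound.

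Per kilobase, transcript levels of the members spanned more than 2 orders of magnitude. The median over the 15 libraries was 1195 FPKM for G6pc2, 519 for Ucn3, 492 for Glp1r, 168 for Slc30a8, 142 for Abcc8, 104 for Slc2a2, 6.53 for Trpm5 and 2.57 for Mafa. Over all libraries the ranges of every pair of neighbours in this order overlapped, from Ucn3 and Glp1r (69.9 to 795 and 229 to 795 FPKM) to Slc2a2 and Trpm5, which met only at the ends (8.61 to 227 and 1.94 to 11.4 FPKM). The order also depended on the driver, since Slc30a8 had a median of 212 and Abcc8 149 FPKM in RIP-Cre but 71.6 and 131 in Pdx-Cre libraries. The members also differed in how much they varied. Abcc8 moved by only 2.17-fold between its lowest and highest library, Glp1r by 3.47-fold and G6pc2 by 5.99-fold, whereas Ucn3 moved by 11.4-fold and Slc2a2 by 26.4-fold. The 32.0-fold range of Mafa rests on few fragments, between 4 and 125 per library, and its locus in the tables (mm9 chr15:75577273-75578352) covers 1080 bases where RefSeq on GRCm38 gives 2821. Fragments behind the other members ran from 84 for Trpm5 to 42120 for G6pc2.

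**Figure D1:**
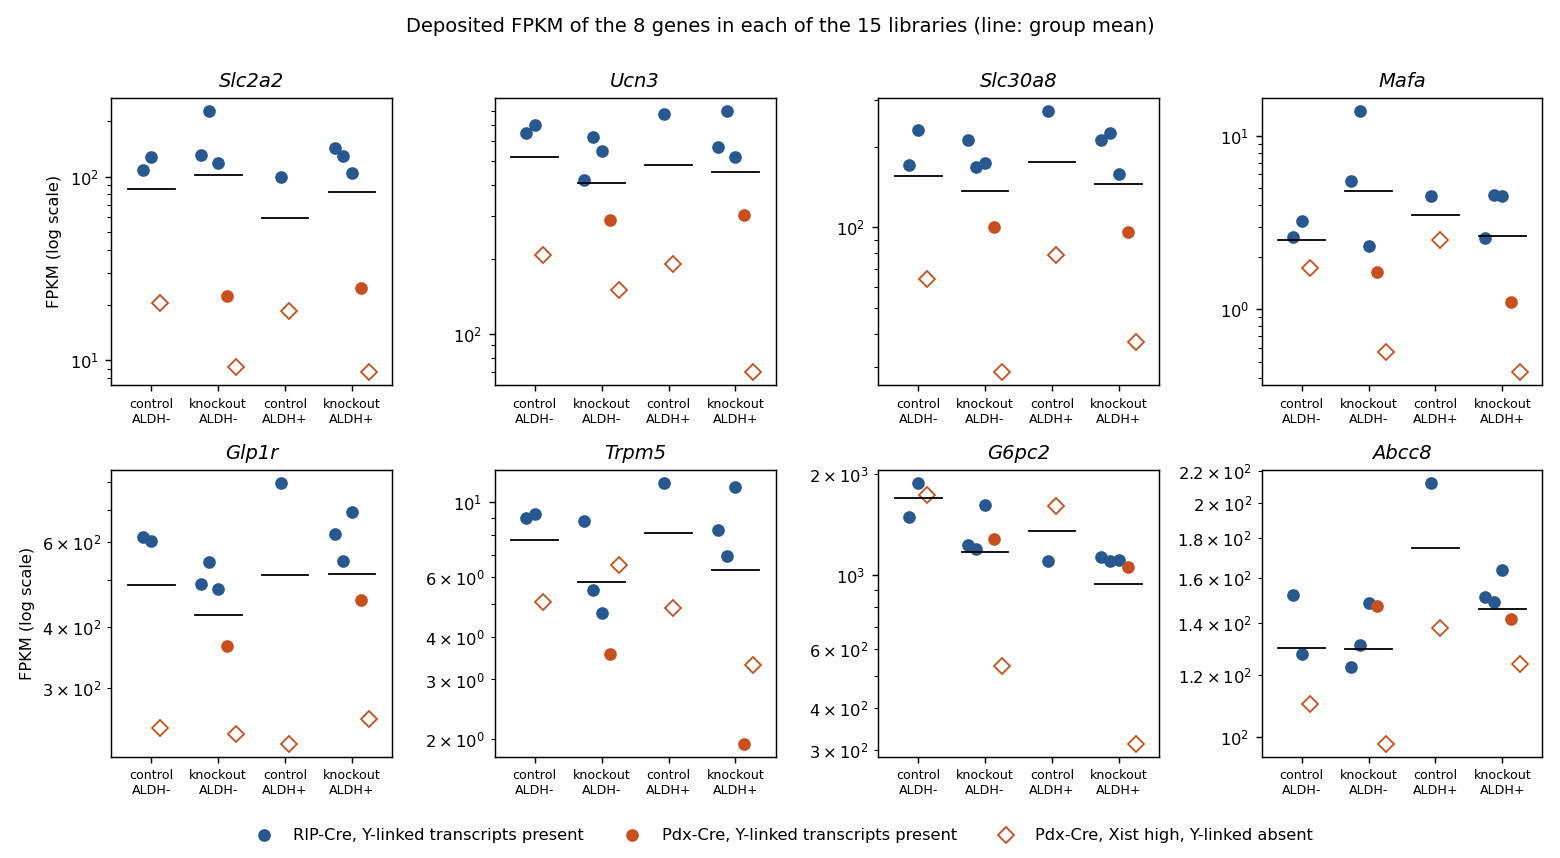
FPKM of each gene (log axis) in the 15 libraries by genotype and ALDH group, coloured by cre driver, with open diamonds for the 4 libraries high in Xist and lines at the group means. Pdx-Cre libraries sit under all RIP-Cre libraries for Slc2a2, Ucn3, Slc30a8 and Glp1r, whereas those of Mafa, Trpm5, G6pc2 and Abcc8 overlap with them.

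The comparison in which the members differed was that of the cre drivers. With Pdx-Cre, 6 of the 8 genes were lower, at an adjusted p under 0.05 in a limma fit of log2(FPKM + 1) with group and driver as terms, and none was higher. Of all 11253 genes tested, 9.73% passed, made up of 4.05% of the tested genes lower and 5.68% higher in Pdx-Cre. The median log2 fold change was -1.11 over the 8 members and -0.01 over all genes.

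Slc2a2 showed the largest difference. Its FPKM in the Pdx-Cre libraries was 20.4 and 18.4 in the ALDH- and ALDH+ controls, 22.5 and 9.21 in the ALDH- knockouts, and 24.6 and 8.61 in the ALDH+ knockouts. In the 9 RIP-Cre libraries it ran from 99.95 to 227 FPKM with a median of 128. The drivers did not overlap, and the lowest RIP-Cre library stood 4.06-fold above the highest Pdx-Cre library. The fitted level was 7.32-fold lower with Pdx-Cre (log2 fold change -2.87, SE 0.24, adjusted p = 3.387e-06). Within each of the 4 groups the fold was 4.92 in control ALDH-, 5.02 in control ALDH+, 9.81 in knockout ALDH- and 7.98 in knockout ALDH+.

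Ucn3 and Slc30a8, the secreted peptide and the granule zinc transporter, followed with falls of similar size. Ucn3 stood at 208 and 192 FPKM in the ALDH- and ALDH+ Pdx-Cre controls, at 288 and 150.3 in the ALDH- knockouts, and at 302 and 69.9 in the ALDH+ knockouts. RIP-Cre libraries gave 418 to 795 FPKM with a median of 628, all above the Pdx-Cre libraries. The fitted log2 fold change of Ucn3 was -1.69 (SE 0.25, adjusted p = 0.000817), which is a 3.24-fold lower level. Slc30a8 stood at 64.3 and 78.9 FPKM in the Pdx-Cre controls, at 100.4 and 28.8 in the ALDH- knockouts and at 95.8 and 37.4 in the ALDH+ knockouts, and at 159 to 272 FPKM with a median of 212 in RIP-Cre libraries. Again the drivers did not overlap, and the log2 fold change was -1.66 (SE 0.23, adjusted p = 0.000328).

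Glp1r, the incretin receptor, was lower by a factor of 1.98. Pdx-Cre libraries held 248 and 229 FPKM in the ALDH- and ALDH+ controls, 365 and 240.2 in the ALDH- knockouts, and 456 and 258 in the ALDH+ knockouts, against 479.8 to 795 FPKM with a median of 604 in RIP-Cre libraries. The separation was narrow, with the lowest RIP-Cre library only 1.05-fold above the highest Pdx-Cre library. The log2 fold change was -0.99 (SE 0.15, adjusted p = 0.0011).

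The 2 members with the fewest fragments were lower by a smaller margin of evidence. Mafa was between 0.434 and 2.51 FPKM, with a median of 1.37, in Pdx-Cre libraries and between 2.32 and 13.9 FPKM, with a median of 4.48, in RIP-Cre libraries, and 5 of the 6 Pdx-Cre libraries fell under the lowest RIP-Cre library. Its log2 fold change was -1.24 (SE 0.32, adjusted p = 0.0227), and the call was lost without the knockout ALDH- library numbered 5 or the knockout ALDH+ library numbered 5, with adjusted p up to 0.0667. Trpm5 was between 1.94 and 6.53 FPKM in Pdx-Cre libraries and between 4.72 and 11.4 FPKM in RIP-Cre libraries, and 3 of the 6 fell under the lowest RIP-Cre library. Its log2 fold change was -0.82 (SE 0.23, adjusted p = 0.0325), and the call held only when the library left out was control ALDH- 1 or knockout ALDH- 2, 3 or 5. Leaving out any of the other 11 libraries ended it. Over the 15 fits the log2 fold change ran from -1.01 to -0.67, with adjusted p up to 0.0827. Without the filter on low values neither passed (adjusted p = 0.0546 for Mafa and 0.0619 for Trpm5).

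G6pc2 and Abcc8, which act between glucose uptake and depolarization, did not pass the test. G6pc2 stood at 1725 and 1602 FPKM in the ALDH- and ALDH+ Pdx-Cre controls, at 1279 and 535 in the ALDH- knockouts and at 1051 and 313 in the ALDH+ knockouts. RIP-Cre libraries gave 1096 to 1878 FPKM, so both Pdx-Cre controls and the ALDH- knockout numbered 4 lay inside that range. The log2 fold change was -0.42 (SE 0.27, 95% interval -0.98 to 0.15, adjusted p = 0.348), and without both knockout Pdx-Cre libraries numbered 5 it was 0.11 (adjusted p = 0.744). Abcc8 ran from 97.9 to 147 FPKM in Pdx-Cre and from 123 to 212 FPKM in RIP-Cre libraries, with a log2 fold change of -0.23 (SE 0.10, 95% interval -0.45 to -0.01, adjusted p = 0.184). The interval of Abcc8 ends well short of the differences of Slc2a2, Ucn3 and Slc30a8.

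**Figure D2:**
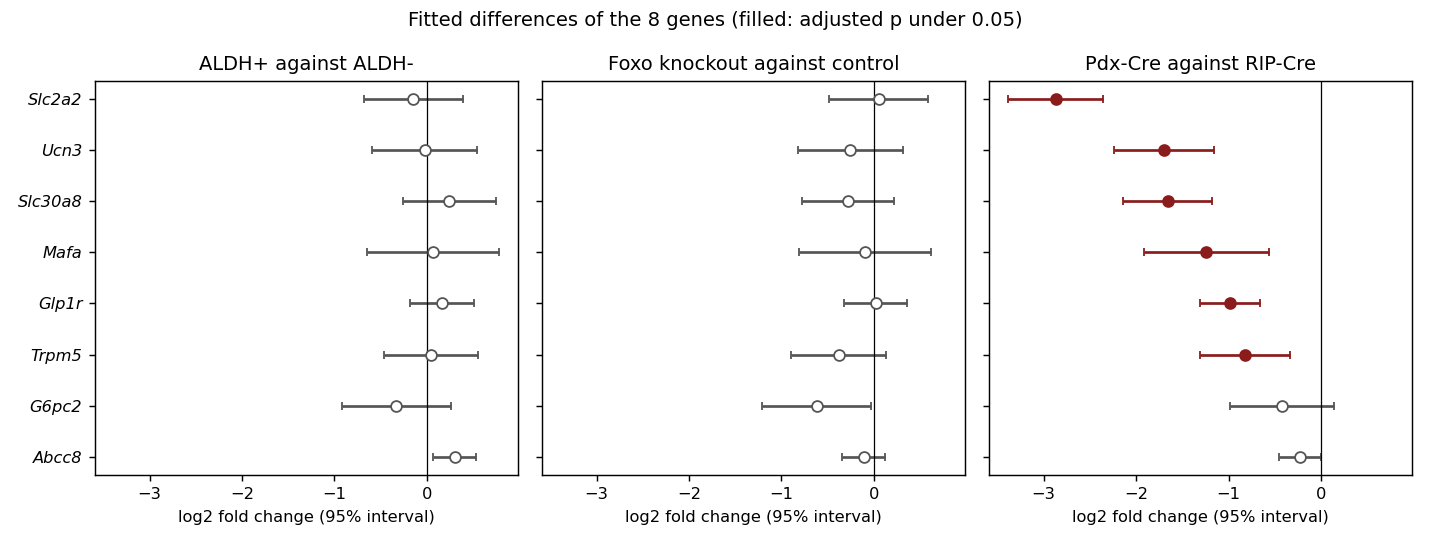
Fitted log2 fold changes of the 8 genes with 95% intervals in the comparisons of ALDH sort, Foxo genotype and cre driver, filled where the adjusted p is under 0.05. The 6 filled points all lie left of 0 in the driver comparison, from Trpm5 at -0.82 to Slc2a2 at -2.87, and no point is filled for sort or genotype.

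Taken 1 at a time, with driver labels permuted within genotype and ALDH group, Slc2a2, Ucn3, Slc30a8 and Glp1r each reached p = 0.00167 in the exact two-sided test, which is the smallest p that the 600 arrangements allow. Mafa gave an exact p of 0.00333, Trpm5 0.005, Abcc8 0.0283 and G6pc2 0.345, none adjusted for the number of genes. The test treated all libraries as independent. If ALDH- and ALDH+ libraries came from the same sort, fewer arrangements would be valid and the smallest possible p would be larger. Whether they did is not known.

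The driver comparison moved with other differences between these libraries. Among β-cell markers outside the 8 genes, the transcription factors Nkx6-1 (log2 fold change -1.02, SE 0.12, adjusted p = 0.000102) and Pdx1 (-0.98, SE 0.19, adjusted p = 0.00464) were lower with Pdx-Cre. Relative to the mean of Nkx6-1 and Pdx1, the log2 driver difference was -1.65 for Slc2a2, -0.63 for Ucn3 and -0.57 for Slc30a8. It was -0.03 for Glp1r, 0.05 for Mafa, 0.26 for Trpm5, 0.81 for Abcc8 and 0.88 for G6pc2. Iapp, the peptide secreted with insulin, ran from 69600 to 114300 FPKM in Pdx-Cre and from 33200 to 125100 in RIP-Cre libraries. Insulin transcripts were too abundant to be quantified in part of the libraries, Ins1 in all 15 and Ins2 in 3. Where it had a value, Ins2 ran from 247000 to 319700 FPKM in 6 Pdx-Cre and from 318000 to 360500 in 6 RIP-Cre libraries. It was not tested. The 6 α-cell markers all had a higher median in Pdx-Cre libraries, with a summed level of 284 to 35900 against 160 to 1020 FPKM. The 5 δ-cell markers summed to 770 to 14000 against 436 to 1330 FPKM, the 2 PP-cell markers to 318 to 18200 against 371 to 2180, and the 8 acinar markers to 27.5 to 1380 against 21.3 to 37.1. The 5 immune markers summed to 45.0 to 163 FPKM in Pdx-Cre and 24.1 to 40.9 in RIP-Cre libraries, with no overlap. Cd68 (log2 fold change 1.46, adjusted p = 0.00146) and Cd74 (1.804, adjusted p = 0.0041) were higher, and C1qa did not pass (0.15, adjusted p = 0.706). Cd68 alone ran from 34.4 to 148.5 FPKM in Pdx-Cre and from 19.0 to 37.7 in RIP-Cre libraries. The 6 duct markers summed to 254 to 837 against 232 to 472 FPKM, with Krt19 higher (1.90, adjusted p = 0.0204). The part of these cells in the differences of the members was not tested. Crhr2 of the δ-cell list, Cftr and Sox9 of the duct list, and Lyz2 and Ptprc of the immune list stayed under 1 FPKM in all 15 libraries, and Sox10 was listed at 0. In sorted pools, fewer β-cells and less transcript per β-cell cannot be told apart.

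The libraries differed in these sums. In the knockout ALDH+ Pdx-Cre library numbered 4, the summed markers were 284 FPKM for α-cells, 770 for δ-cells, 318 for PP-cells, 27.5 for acinar and 361 for duct cells, all within or below the range of the RIP-Cre libraries. The immune markers, at 45.0, and Ghrl of ε-cells, at 0.304, were above the RIP-Cre maxima of 40.9 and 0.280 FPKM. In this library Slc2a2 was 24.6, Ucn3 302, Slc30a8 95.8, Glp1r 456, Mafa 1.11 and Trpm5 1.94 FPKM. The lowest RIP-Cre values, in the same order, were 99.95, 418, 159, 479.8, 2.32 and 4.72 FPKM. The knockout Pdx-Cre libraries numbered 5 held the lowest levels of Slc2a2, Ucn3, Slc30a8, G6pc2 and Mafa. Their acinar sums were 398 FPKM in ALDH- and 675 in ALDH+ cells. The ALDH+ Pdx-Cre control had a higher acinar sum, 1380 FPKM, with G6pc2 at 1602, Mafa at 2.51, Ucn3 at 192 and Slc2a2 at 18.4 FPKM. In the knockout ALDH+ library numbered 5 the α-, δ- and PP-cell sums, 614, 1180 and 443 FPKM, lay within the RIP-Cre ranges. Its duct sum of 837 and immune sum of 73.2 FPKM lay above those ranges, as did its acinar sum. A link between these sums and the member levels was not tested.

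**Figure D3:**
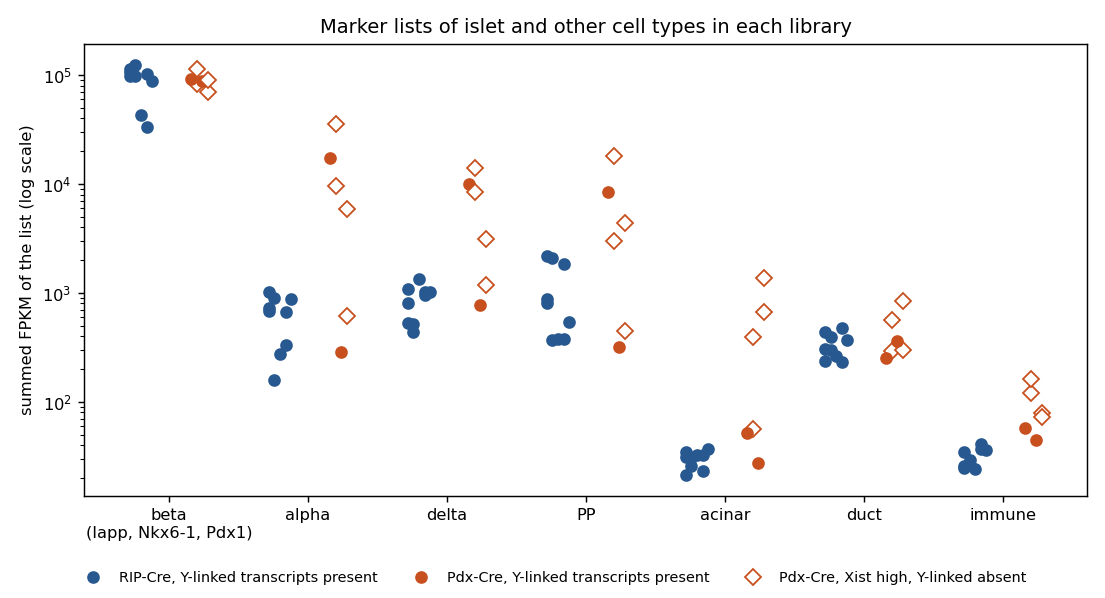
Summed FPKM of the marker lists (log axis) in each library, with RIP-Cre on the left and Pdx-Cre on the right of each list. Sums of α-, δ-, PP-cell and acinar markers reach higher in most Pdx-Cre libraries. Those of the knockout ALDH+ library numbered 4 are near the RIP-Cre libraries. For the knockout ALDH+ library numbered 5 this holds for the α-, δ- and PP-cell sums.

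When only the 11 libraries with Y-linked transcripts were fitted, 2 Pdx-Cre against 9 RIP-Cre, Slc2a2 alone of the members passed (log2 fold change -2.53, SE 0.26, adjusted p = 0.00469), where 41 of all genes did. The log2 fold change was -0.97 for Ucn3 (adjusted p = 0.107), -0.98 for Slc30a8 (adjusted p = 0.063), -1.30 for Mafa (adjusted p = 0.319), -1.20 for Trpm5 (adjusted p = 0.182) and -0.48 for Glp1r (adjusted p = 0.266). In those 2 Pdx-Cre libraries Ucn3 stood at 288 and 302 FPKM, Slc30a8 at 100.4 and 95.8, and Glp1r at 365 and 456. The lowest RIP-Cre values of these genes were 418, 159 and 479.8 FPKM. These 2 libraries were also part of the fit that called the genes. The 4 Pdx-Cre libraries high in Xist were lower again for Ucn3 (69.9 to 208 FPKM), Slc30a8 (28.8 to 78.9), Glp1r (229 to 258) and Slc2a2 (8.61 to 20.4), but not for Trpm5 (3.30 to 6.53) or Mafa (0.434 to 2.51). For Glp1r the difference between drivers fell from -0.99 to -0.48 when the 4 were left out. With the Y-linked pattern as a further term over all 15 libraries, Slc2a2 was again the only member to pass (-2.37, SE 0.33, adjusted p = 0.00291).

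**Figure D4:**
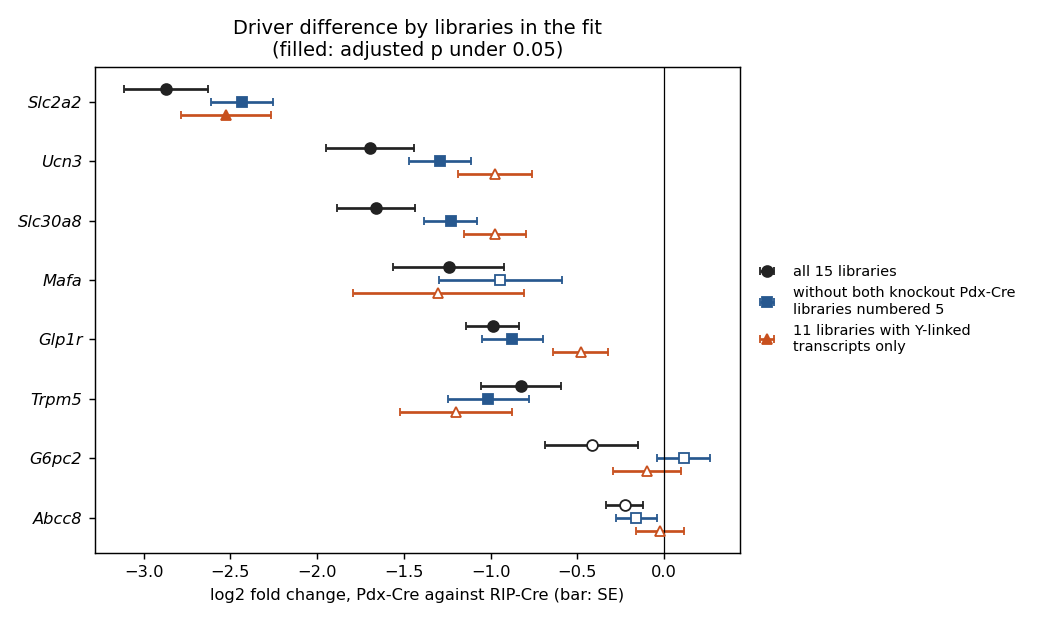
Log2 fold change of Pdx-Cre against RIP-Cre with its SE in all 15 libraries, without both knockout Pdx-Cre libraries numbered 5, and in the 11 libraries with Y-linked transcripts, filled where the adjusted p is under 0.05. Slc2a2 stays between -2.87 and -2.43 and filled in all 3, whereas Ucn3, Slc30a8 and Glp1r shrink in the 11 libraries and are open there.

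Among the relatives of each member, the glucose transporters moved in opposite directions. Slc2a1, which encodes the widely expressed transporter Glut1, was higher with Pdx-Cre (log2 fold change 2.18, SE 0.20, adjusted p = 1.063e-05), between 48.97 and 124.9 FPKM against 11.4 to 24.9 in RIP-Cre libraries. The ratio of Slc2a2 to Slc2a1 transcript was 4.76 to 12.5 in RIP-Cre and 0.0737 to 0.465 in Pdx-Cre libraries, with no overlap. In the 2 Pdx-Cre libraries with Y-linked transcripts Slc2a1 stood at 48.97 and 52.96 FPKM. Slc2a8 did not pass (0.31, adjusted p = 0.608), and Slc2a3 and Slc2a4 were too low to test.

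**Figure D5:**
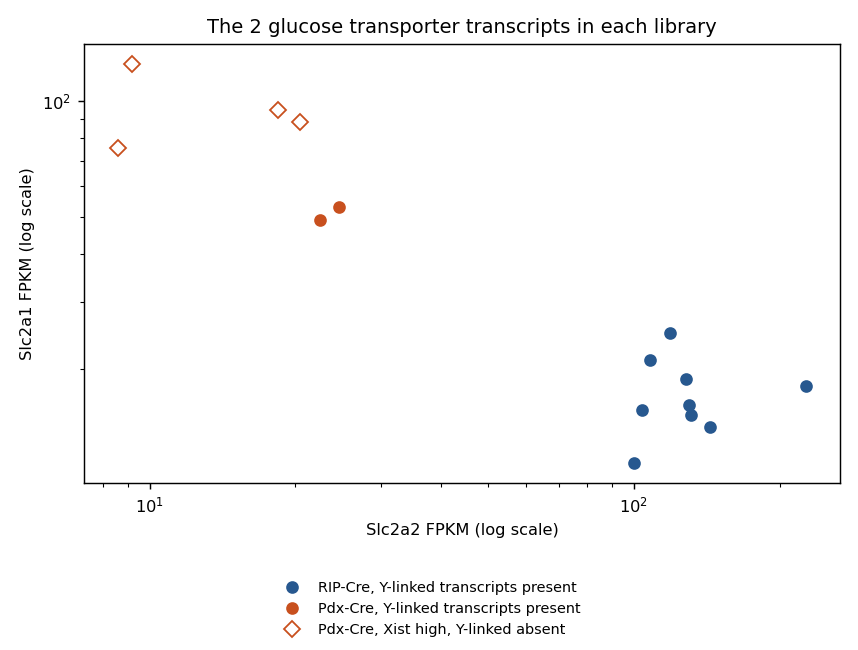
Slc2a1 against Slc2a2 in each library (both axes log FPKM). The 9 RIP-Cre libraries lie at Slc2a2 of 99.95 FPKM or more and Slc2a1 of 24.9 or less, and the 6 Pdx-Cre libraries at Slc2a2 of 24.6 or less and Slc2a1 of 48.97 or more.

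Of the small Maf factors, Maff was higher with Pdx-Cre (log2 fold change 1.73, adjusted p = 0.0173), while Mafg (0.06) and Mafk (-0.05) did not pass. Of the zinc transporters, Slc30a4 was lower (-0.49, adjusted p = 0.0468) and Slc30a1 (0.32), Slc30a5 (0.16), Slc30a6 (-0.35), Slc30a7 (0.33) and Slc30a9 (-0.02) did not pass. The most abundant of these, Slc30a9, ran from 20.1 to 42.2 FPKM, a range that Slc30a8 entered only in the knockout Pdx-Cre libraries numbered 5 (28.8 and 37.4 FPKM). Gcgr, the glucagon receptor and a relative of Glp1r, was lower (-2.07, SE 0.27, adjusted p = 0.000267) and Gipr did not pass (-0.31, adjusted p = 0.542). G6pc3 (0.50, adjusted p = 0.129) and the glucose-6-phosphate transporter Slc37a4 (0.02, adjusted p = 0.960) did not pass, nor did Kcnj11, the pore subunit that pairs with SUR1 (-0.28, adjusted p = 0.143). Trpm3 (-0.73, adjusted p = 0.132), Trpm7 (-0.19), Trpm4 (-0.15) and Trpm2 (0.13) did not pass. No relative of Ucn3 could be tested, since Ucn, Ucn2, Crh and Crhbp were listed at 0 in every library, Crhr1 reached 1.25 FPKM and Crhr2 0.309 FPKM at most.

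In the wider lists, 7 of 15 tested maturity and immaturity genes other than the members passed in the driver comparison, 3 higher and 4 lower. Nkx6-1 and Pdx1 were among the lower, as were Sytl4, a granule docking protein (log2 fold change -1.24, adjusted p = 0.000133), and Ero1lb, an oxidase for insulin folding (-0.61, adjusted p = 0.00896). Among the higher were Rbp4 (1.90, adjusted p = 0.0202), which also stands on the δ-cell list, and the synaptotagmin Syt4 (0.49, adjusted p = 0.0136), both named after their values were seen. Of 13 tested genes of glucose sensing and stimulus coupling, the glycolytic Tpi1 was higher (2.05, SE 0.19, adjusted p = 8.617e-06) and Pfkfb2 lower (-0.65, adjusted p = 0.0123), and 11 did not pass, among them glucokinase (0.18). Of 13 tested receptors of secretion, 4 were lower and none higher: Gcgr, the prolactin receptor Prlr (-0.82, adjusted p = 0.00168), the calcium-sensing receptor Casr (-0.94, adjusted p = 0.0297) and the muscarinic receptor Chrm3 (-0.72, adjusted p = 0.0392).

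The sort by ALDH activity was the comparison the study was built on. Averaged over genotypes, none of the 8 genes passed between ALDH+ and ALDH- cells, where 5.99% of all genes did, 674 in number. Without the ALDH+ control library numbered 1 only 3 of all genes passed. At an unadjusted p under 0.05 stood 1 of the 8 members, Abcc8, and 20.8% of all genes. It stood at 152, 128 and 110.3 FPKM in the ALDH- controls and 212 and 138 in the ALDH+ controls, and at 123, 131, 149, 147 and 97.9 in the ALDH- and 151, 149, 164, 142 and 124 in the ALDH+ knockouts. The ranges overlapped, and the log2 fold change was 0.30 (SE 0.11, adjusted p = 0.118), with an exact permutation p of 0.0738. The study, with DESeq on what it calls wild-type cells, lists Abcc8 as higher in ALDH+ cells. By quantitative PCR, another measure, it found MafA much lower in ALDH+ than in ALDH- β-cells.

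For the other members the ALDH difference was small against its error. The log2 fold change was -0.02 for Ucn3 (95% interval -0.59 to 0.55), -0.15 for Slc2a2 (-0.68 to 0.39), 0.17 for Glp1r (-0.18 to 0.51) and 0.24 for Slc30a8 (-0.26 to 0.74). It was -0.33 for G6pc2 (-0.92 to 0.26), 0.05 for Trpm5 (-0.46 to 0.56) and 0.07 for Mafa (-0.65 to 0.78). The intervals leave room for changes of up to about the size given at their ends, and for Ucn3 the sign turned when only the 9 RIP-Cre libraries were fitted (0.23). In the controls alone 1.22% of all genes passed and in the knockouts alone 0.0178%, with 0 of 8 members in either (limma, with 1 and 0 members at an unadjusted p under 0.05, against 14.3% and 13.1% of all genes). No maturity gene passed, with the smallest p for Neurod1 (0.39, adjusted p = 0.0857) and Cd81 (-0.48, adjusted p = 0.0868), and no receptor of secretion, with Gipr (0.97, adjusted p = 0.0683) and Prlr (0.33, adjusted p = 0.194) nearest. The L-type calcium channel gene Cacna1c was the only gene of stimulus coupling to pass, higher in ALDH+ cells (0.59, adjusted p = 0.0322). The PP-cell markers Ppy (-2.10, adjusted p = 0.0131) and Pyy (-2.07, adjusted p = 0.0298) were lower in ALDH+ cells.

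Loss of Foxo changed none of the 8 genes at the threshold. Averaged over ALDH groups, 0.116% of all genes passed in knockouts against controls and 0 of 8 members. At an unadjusted p under 0.05 stood 1 of the 8, G6pc2, and 7.71% of all genes, so the count is near the background. In ALDH- cells it stood at 1485, 1878 and 1725 FPKM in the controls and at 1229, 1195, 1614, 1279 and 535 in the knockouts. In ALDH+ cells it stood at 1101 and 1602 FPKM in the controls and at 1128, 1096, 1109, 1051 and 313 in the knockouts. The knockout values overlapped with the controls, and both knockouts numbered 5 stood well below the rest. The log2 fold change was -0.62 (SE 0.28, adjusted p = 0.623) with an exact permutation p of 0.0918, and it was -0.29 without both libraries numbered 5 (adjusted p = 0.667) and -0.10 in the 11 libraries with Y-linked transcripts (adjusted p = 0.924). The Pdx-Cre controls, also high in Xist, held 1725 and 1602 FPKM.

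For the remaining members the knockout difference lay between -0.38 for Trpm5 (95% interval -0.89 to 0.13) and 0.05 for Slc2a2 (-0.48 to 0.59). It was -0.26 for Ucn3, -0.28 for Slc30a8, -0.11 for Abcc8, -0.10 for Mafa and 0.02 for Glp1r, with adjusted p-values between 0.782 and 0.988. By quantitative PCR, the study found Glut2 lower in its Foxo knockouts. Within ALDH- cells 0.0178% and within ALDH+ cells 0% of all genes passed, and no member in either, where no member had an unadjusted p under 0.05. In the lists the smallest p belonged to Cd81 (0.67, adjusted p = 0.177) and Pcsk1 (0.21, adjusted p = 0.706) among maturity genes, Gpd2 (-0.36, adjusted p = 0.624) and Cacna1c (0.33, adjusted p = 0.625) in stimulus coupling, and Gpr119 (-1.34, adjusted p = 0.408) and Grin1 (-0.52, adjusted p = 0.647) among receptors. None of them passed.

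No member passed for either interaction. Of all genes, 0% passed for genotype by ALDH and 0% for driver by ALDH, and 0 of 8 members did (limma, with 0 and 1 members at an unadjusted p under 0.05, against 4.23% and 4.54% of all genes). The 1 was Trpm5 in the driver by ALDH interaction (log2 difference -0.94, SE 0.41, adjusted p = 0.994). In knockouts it stood at 8.80, 5.51 and 4.72 FPKM in ALDH- and 8.26, 6.96 and 11.1 in ALDH+ cells with RIP-Cre, and at 3.57 and 6.53 in ALDH- and 1.94 and 3.30 in ALDH+ cells with Pdx-Cre.

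Described over the 15 libraries, correlations between members ran from 0.18 to 0.93 over the 28 pairs. Between Ucn3, Slc2a2, Glp1r and Slc30a8 the Pearson correlation of log2 levels was 0.86 to 0.93. Within the 9 RIP-Cre libraries it was -0.33 to 0.41 for the same 6 pairs, and within the 6 Pdx-Cre libraries 0.56 to 0.94. The other members called for the driver followed less closely, Mafa with 0.62 to 0.83 and Trpm5 with 0.53 to 0.58 to those 4 genes. All of these points share libraries, and those with Pdx-Cre also the split by Xist, so the values are a description. The genes nearest to Slc2a2 were Ddc (r = 0.96), Gng12 (0.96) and Slc7a8 (0.96), those nearest to Ucn3 were Wnt4 (0.96), Ddc (0.93) and Slc30a8 (0.93), and those nearest to Slc30a8 were Ddc (0.95), Wnt4 (0.94) and Hepacam2 (0.94). Within RIP-Cre libraries alone r was 0.27 between Slc2a2 and Ddc and 0.20 between Ucn3 and Wnt4. Glp1r lay nearest to Sphkap (0.93), Odz2 (0.92) and the Y-linked Kdm5d (0.92), whose r with Glp1r was 0.88 within RIP-Cre libraries. G6pc2 lay nearest to Iah1 (0.89), Ttr (0.86) and Emilin1 (0.79), and Mafa to Sec31a (0.89), Taf15 (0.89) and Zc3h3 (0.89). Abcc8 lay nearest to Eno3 (0.92), Pitpnm2 (0.91) and Peg3 (0.90), each with r of at least 0.84 within both drivers, and Trpm5 to Arhgef17 (0.93), Fam101a (0.83) and Grk5 (0.83).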

How the data were processed

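Total RNA of sorted islet cells was sequenced in 15 libraries, each deposited as a gene table. The submitters' processing notes name bcl2fastq 1.8.4, TopHat2 2.0.4 and mouse build mm9, and the program that quantified genes is not given in the sources used here. The deposited values are FPKM, computed by the authors from fragments, transcript length and library size, with confidence intervals, from which fragments per gene were recovered. Of 23699 lines, 712 lines of the 248 symbols listed more than once were left out, as were 63 genes that failed or were too deep in any library.

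FPKM were rescaled by trimmed means and tested as log2(FPKM + 1) with limma 3.58.1 (R 4.3.3, trend), on genes with a mean of at least 1, with group and driver as terms and Benjamini-Hochberg adjustment over 11253 genes. Counts were not analysed here. The fits were also run on simulated data with independent normal noise. That simulation held no pairing, split by Xist or mixture of cells, so it does not cover these features. Single genes had exact two-sided permutation tests, which treated all libraries as independent. Other genes named are up to 4 non-members per list with the smallest p among those passing, or otherwise the 2 smallest, the paralogs, and the 3 nearest by correlation. Results for 1 listed gene are not reported here. Members and lists were chosen with earlier results of these data known. Nothing states that libraries of a group came from separate animals, so p-values measure the spread between these libraries, which may be technical. Alternatives changed rescaling, pseudocount, filter, model terms and libraries.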

Additional observations from a re-analysis of the deposited data

Results flagged for a closer look

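The knockout Pdx-Cre libraries numbered 5 stood apart from the other 4 libraries of their groups for G6pc2. It was 535 FPKM in the ALDH- and 313 FPKM in the ALDH+ library, where the gap to the nearest library took up 0.746 and 0.943 of the group's range of log2 levels. Groups of 5 were examined for all 8 genes, 16 cases in all, and chance marks about 1 in 20.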

How the results depend on the processing

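Values are genes called at adjusted p under 0.05, in the order of the main text, and log2 fold changes of members that turned sign, none of which had passed the test. A pseudocount of 0.1 and rescaling by median log ratios moved no count by more than 1.5 times and turned no member's sign. Without rescaling, 1 gene was called for knockout in ALDH-. Without the filter on low values, 1 was called for ALDH in knockouts, 40 for knockout averaged, 33 for knockout in ALDH+, 16 for genotype by ALDH and 3 for driver by ALDH. Without the driver as a term, 185 were called for ALDH averaged, 0 for ALDH in controls, 6 for knockout averaged and 1 for knockout in ALDH-, and the ALDH difference was -0.037 for Mafa and -0.021 for Trpm5. In the compared groups only, 9 were called for ALDH in controls, 1 for ALDH in knockouts and 1 for knockout in ALDH-. In RIP-Cre libraries only, the counts were 43 for ALDH averaged, 9 for ALDH in controls, 0 for ALDH in knockouts, 7 for knockout averaged, 1 in ALDH-, 4 in ALDH+ and 3 for genotype by ALDH. There the ALDH difference was 0.225 for Ucn3 and -0.010 for Mafa, and the knockout difference 0.350 for Mafa and -0.264 for Glp1r. With the length trend removed, 233 were called for ALDH averaged and 0 in controls, with ALDH differences of 0.097 for Ucn3 and -0.044 for Trpm5, and the driver call of Trpm5 was lost (adjusted p = 0.055).

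Same-numbered libraries correlated between -0.045 and 0.070 after removal of group and driver means. With so few libraries per group what remains is constrained, so these values cannot decide whether same-numbered libraries are pairs. The control libraries numbered 2 also have different drivers. The replicate numbers were not taken as pairs in the main fit. The knockout Pdx-Cre libraries numbered 4 nevertheless both held Y-linked transcripts, and those numbered 5 were both high in Xist. With the replicate number as a block, with or without the driver, 9 genes were called for ALDH averaged, 0 in controls, 1 in knockouts and 2 for driver by ALDH, and the ALDH difference of Ucn3 was 0.104.

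The next 3 alternatives were chosen after seeing the data. Without both knockout Pdx-Cre libraries numbered 5, 400 genes were called for ALDH averaged, 1 in knockouts, 3 for knockout in ALDH+, 1 for genotype by ALDH and 348 for the driver. There Ucn3 was 0.082 for ALDH, Mafa 0.084 for knockout and G6pc2 0.113 for the driver. In the 11 libraries with Y-linked transcripts, 156 were called for ALDH averaged, 15 in controls, 0 in knockouts, 6 for knockout averaged, 1 in ALDH-, 3 in ALDH+, 2 for genotype by ALDH, 41 for the driver with 1 of the 8 members, and 5 for driver by ALDH. There Ucn3 was 0.211 for ALDH, and Mafa 0.350 and Glp1r -0.264 for knockout. With Y-linked transcript status as a term, 1 was called for knockout in ALDH-, 1 in ALDH+ and 56 for the driver with 1 member, and Ucn3 was 0.013 for ALDH, Slc2a2 -0.103 and Glp1r -0.126 for knockout, and G6pc2 0.110 for the driver.

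When each library was left out in turn, 3 to 841 genes were called for ALDH averaged, with 3 without the first ALDH+ control, 0 to 254 in controls, 1 to 3 in knockouts, 1 to 15 for knockout averaged, 0 to 3 in ALDH-, 0 to 4 in ALDH+, 0 to 3 for genotype by ALDH, 693 to 1274 for the driver, with 4 to 6 members, and 0 to 2 for driver by ALDH. The ALDH difference ran from -0.121 to 0.134 for Ucn3, -0.110 to 0.261 for Mafa, -0.299 to 0.017 for Slc2a2, -0.063 to 0.374 for Glp1r and -0.038 to 0.170 for Trpm5, and the knockout difference from -0.285 to 0.086 for Mafa, -0.107 to 0.210 for Slc2a2 and -0.195 to 0.242 for Glp1r. The cause of these changes was not tested. Slc2a2, Ucn3, Slc30a8 and Glp1r kept their driver call in 15 of 15 such fits.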
